A study of Mus musculus with 6 samples.

Results

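A set of 10 genes that act in the engulfment of dying cells and in the Dock-Elmo-Rac route to the actin cytoskeleton was followed across single-nucleus RNA-seq libraries of mouse tumors. They are Mertk, Axl, Itgb8, Gulp1, Elmo1, Dock1, Dock2, Rac2, Dock8 and Dock10, and they were taken by symbol from the gene rows of the count matrices, as 10 of 22623 rows. The study asked how loss of the lactate and pyruvate transporter MCT2 (gene Slc16a7) in the host changes the cells of an implanted lung tumor. TC1 cells, a transformed mouse lung line, were grown for 24 days under the skin of the flank, and nuclei of frozen tumors were sequenced from 3 MCT2 control (CO) and 3 MCT2 knockout (KO) libraries.

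All mice carried MCT2loxP/loxP; mCre-Tg alleles on a C57BL/6 background and were 8 weeks old. The KO group received tamoxifen for 5 days and the CO group received vehicle, with tumor cells injected 2 days later. Because only the KO group had tamoxifen, the drug, active Cre and the deletion cannot be told apart, and the promoter behind Cre was not named in the sources used here. The implanted TC1 cells do not carry the floxed alleles of the host, so the tumor cells themselves were not a target of the deletion. The labels number the libraries as replicates and give no animal identity, so p-values measure the spread between these libraries.

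Mertk and Axl are TAM receptors, tyrosine kinases that recognise phosphatidylserine on dying cells through the bridging proteins Gas6 and protein S. Gulp1 is an adaptor that binds the tails of engulfment receptors, and Itgb8 pairs with the alpha v integrin chain and activates latent TGF-beta. Elmo proteins hold Dock1 or Dock2 at the membrane, where the Dock protein loads GTP onto Rac. Dock1 is known from many tissues, whereas Dock2 and Rac2 are known from blood cells. Dock8 and Dock10 belong to other Dock subfamilies that do not work through Elmo, and Dock8 acts on Cdc42 in leukocyte migration.

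The matrices held 18865 barcodes, of which 17514 nuclei were kept, between 1763 and 4587 per library, from 13252572 to 22057084 unique molecular identifier (UMI) counts per library. Between libraries, 61 distinct barcodes were shared. Clusters were formed without the 10 genes and named from markers, which gave 9063 tumor-like nuclei, 3603 macrophage-like nuclei, 678 T/NK-like nuclei and 161 dendritic-like nuclei. Of 14 macrophage markers, Itgam had no UMI in any class. The labels give the tissue as lung, but of 4 lung epithelial markers Sftpc and Scgb1a1 had 0 UMIs in all libraries, Sftpb had 9 and Ager had 145, with 13 to 41 per library. The mean RNA level of the targeted gene was not lower in KO, over all nuclei or in macrophage-like nuclei. Over all nuclei, Slc16a7 had 8.30, 11.7 and 21.1 counts per 1000000 UMIs (CPM) in CO1, CO2 and CO3. KO1, KO2 and KO3 had 15.5, 7.07 and 31.4 CPM. Macrophage-like nuclei had 102, 91.5 and 205 CPM in CO and 123, 167 and 156 CPM in KO, and tumor-like nuclei 0.238 to 2.27 CPM. In T/NK-like nuclei, with 2 to 8 UMIs per library, the means were 36.4 CPM in CO and 32.6 CPM in KO. Directions given here therefore hold between libraries by their labels, KO against CO. The library labelled KO2 had the smallest share of macrophage-like nuclei, 9.98% against 17.9% to 24.2% in the other libraries, and KO3 had the shallowest nuclei, with a median of 1094 UMIs against 1970 to 4838.

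Dock1 and Dock2, which act on the same partner, are introduced by the last 100 bases before their RefSeq start sites, with Dock8 as the member richest in CpG. Sequences are from RefSeq on GRCm38.p6 and are written 5′ to 3′ on the strand of the gene, and capitals mark GAGGAA or its complement TTCCTC, a purine-rich core bound by ETS factors such as PU.1.
Dock1, chr7:134670587-134670686, plus strand: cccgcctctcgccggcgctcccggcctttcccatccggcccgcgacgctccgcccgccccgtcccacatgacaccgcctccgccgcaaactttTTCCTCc
Dock2, chr11:34783906-34784005, minus strand: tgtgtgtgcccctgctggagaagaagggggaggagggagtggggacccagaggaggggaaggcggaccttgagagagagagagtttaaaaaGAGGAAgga
Dock8, chr19:24999429-24999528, plus strand: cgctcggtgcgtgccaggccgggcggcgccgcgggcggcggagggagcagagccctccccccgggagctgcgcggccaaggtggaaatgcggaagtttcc
The Dock1 stretch held 15 CpG and the Dock2 stretch held 1. In the full 250 bases before the start, Dock1 had 29 CpG, Dock2 had 4 and Dock8 had 43, against a median of 6 and quartiles of 2 and 16 over 32851 promoter windows. The core, searched on both strands, was in 3 of 11 windows of the members (Axl, Dock1 and Dock2) and in 23.3% of all windows. A match of these letters is a description of the sequence, since no binding was measured. Both Dock1 and Dock2 had the match, and Elmo1, Dock8 and Dock10 did not. Only this string and its complement were searched, so other forms of an ETS core were not counted. Of the 10 genes, 9 had an entry, and for Elmo1 and Dock10 an entry for each of 2 start sites.

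The members fell into 3 patterns of class level. Elmo1, Dock2, Dock8, Dock10 and Rac2 were at least 2 times higher in macrophage-like than in tumor-like nuclei in each of 6 libraries. Gulp1 and Itgb8 were at least 2 times higher in tumor-like than in macrophage-like nuclei in each library. Mertk, Axl and Dock1 had substantial levels in both classes. The first count, 5 of 10 members, stands beside 9.84% of 12388 genes that met the same rule, and the second, 2 of 10, beside 11% of those genes. Comparing T/NK-like with tumor-like nuclei, the same 5 genes were at least 2 times higher in the T/NK-like nuclei, beside 5.55% of 12191 genes. These are descriptions without a test, since a cluster and the rest are cut from the same nuclei.

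**Figure D1:**
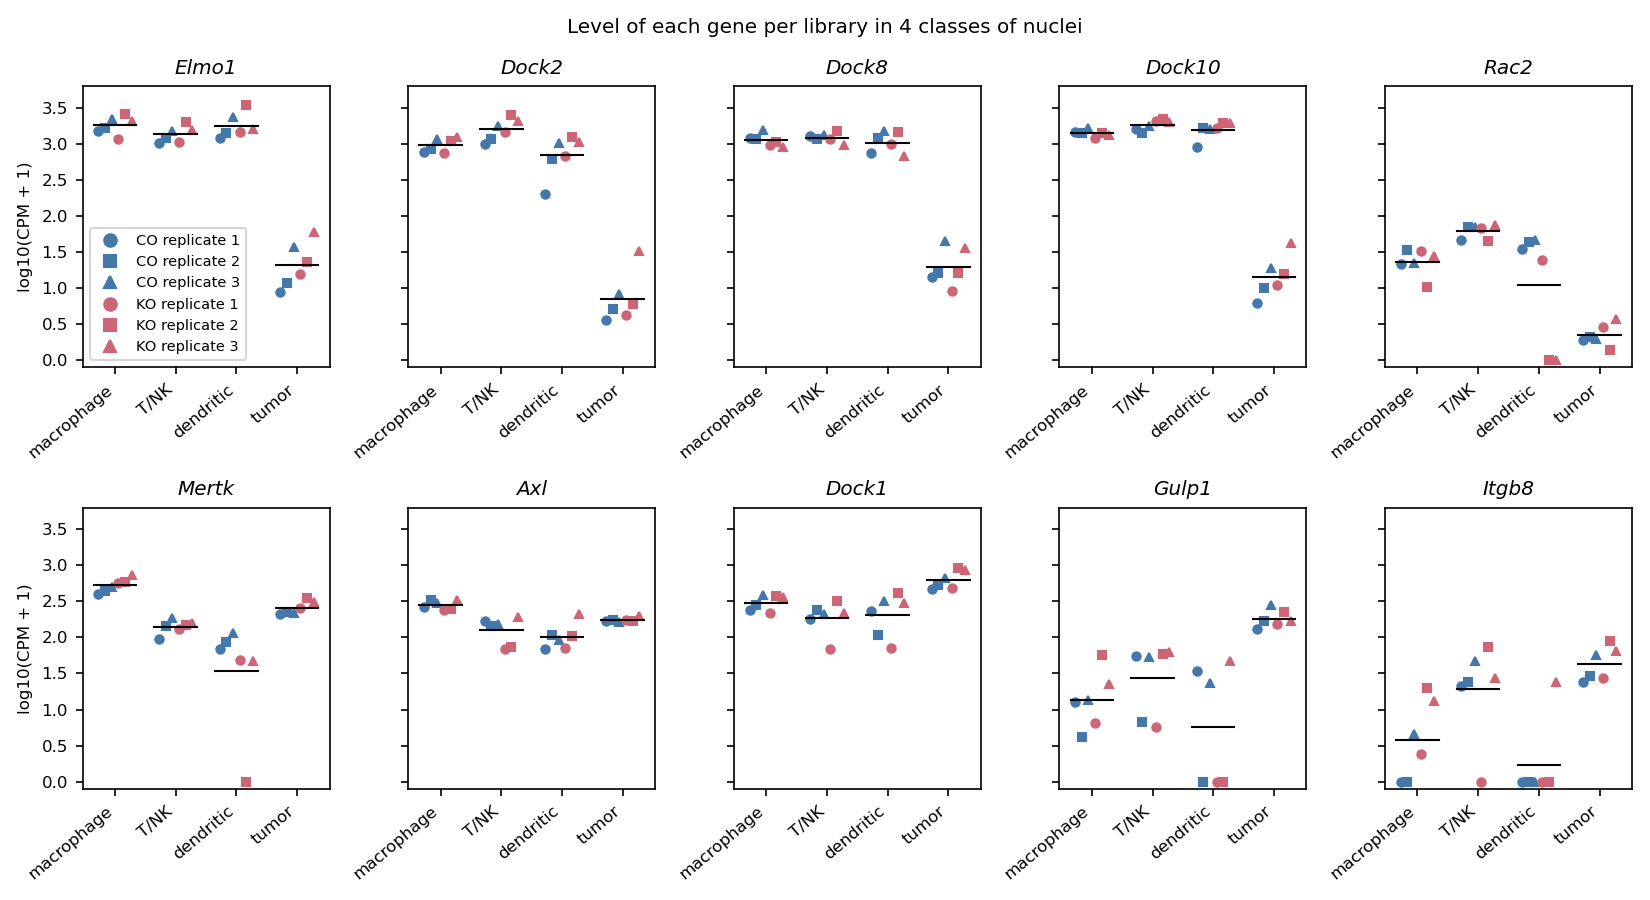
Level of each of the 10 genes in 4 classes of nuclei, as log10(CPM + 1) on the vertical axis, with 1 point per library (CO and KO in different colours) and a black line at the mean of the plotted values. Elmo1, Dock2, Dock8 and Dock10 sit high in macrophage-like, T/NK-like and dendritic-like nuclei and low in tumor-like nuclei, Gulp1 and Itgb8 sit highest in tumor-like nuclei, and Mertk, Axl and Dock1 are present throughout.

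Elmo1, the scaffold that joins Dock proteins to upstream receptors, lies at chr13:20090596-20608353 on the plus strand (ENSMUSG00000041112). In macrophage-like nuclei it had 1522, 1655 and 2189 CPM in CO1, CO2 and CO3 and 1166, 2596 and 2087 CPM in KO1, KO2 and KO3. In tumor-like nuclei it had 7.91, 10.9 and 35.9 CPM (CO) and 14.9, 21.8 and 59.1 CPM (KO). The groups overlapped in both classes, while the classes were 35.3- to 192-fold apart. T/NK-like nuclei had a mean of 1389 CPM and dendritic-like nuclei 1915 CPM, so Elmo1 was shared by these leukocyte classes rather than limited to macrophages. It was not even among them. The dendritic-like cluster of 114 nuclei had a pooled level of 2200 CPM and that of 47 nuclei 511 CPM. Plasmacytoid dendritic-like nuclei had 495 CPM. After each nucleus was thinned to 1000 UMIs, 75.5% of macrophage-like, 70.5% of T/NK-like, 74.7% of dendritic-like and 2.03% of tumor-like nuclei had an Elmo1 UMI. Endothelial-like nuclei also carried it, between 218 and 819 CPM, with a pooled level of 563 CPM.

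Dock2, the blood-cell partner of Elmo1 (chr11:34226815-34783892, minus strand, ENSMUSG00000020143), had 777, 832 and 1173 CPM in macrophage-like nuclei of CO and 751, 1104 and 1241 CPM in those of KO. Tumor-like nuclei had 2.66, 4.07 and 7.17 CPM in CO and 3.17, 5.02 and 31.2 CPM in KO, where KO3 stood above the other 5 libraries. The ratio of the classes ran from 39.8, in KO3, to 292, with a median of 212. The size of this ratio depended on how nuclei were classed. With nuclei classed by marker counts, the ratio of the mean levels was 31.8 in place of 110.3 for Dock2, 34.0 in place of 74.6 for Elmo1, 35.9 in place of 86.5 for Dock10 and 27.2 in place of 52.1 for Dock8. T/NK-like nuclei had more Dock2 than macrophage-like nuclei in all 6 libraries, from 989.5 to 2528 CPM. Within the T/NK-like class, the cluster led by Themis, Bcl11b and Tox had a median of 1998 CPM over 6 libraries, and the cluster led by Ncr1, Klrd1 and Gzmc had a median of 1316 CPM over 5 libraries.

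Rac2, the Rac GTPase of blood cells (chr15:78559167-78572783, minus strand, ENSMUSG00000033220), was the lowest of the leukocyte members. It had 20.6, 32.3 and 21.5 CPM in macrophage-like nuclei of CO and 31.4, 9.44 and 26.8 CPM in those of KO, from 3 to 45 UMIs per library. In tumor-like nuclei it ranged from 0.369 to 2.70 CPM. T/NK-like nuclei had the highest level, from 43.8 to 74.2 CPM, again above the macrophage-like nuclei of every library. At 1000 UMIs per nucleus, a Rac2 UMI was found in 2.69% of macrophage-like and 6.30% of T/NK-like nuclei, against 0.157% of tumor-like nuclei, so depth limits what can be read from single nuclei.

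Dock8 (chr19:24999534-25202432, plus strand, ENSMUSG00000052085) had 1217, 1166 and 1530.4 CPM in macrophage-like nuclei of CO. The KO libraries had 962, 1054 and 892 CPM, all below the CO libraries. T/NK-like nuclei were level with them, at 947 to 1491 CPM, and tumor-like nuclei had 8.16 to 44.4 CPM. Outside the leukocytes, the 64 adipocyte-like nuclei had a mean of 510.1 CPM, which rests on few UMIs per library.

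Dock10, a lymphocyte-associated Dock protein (chr1:80501073-80758527, minus strand, ENSMUSG00000038608), had 1440.1, 1409 and 1631 CPM in macrophage-like nuclei of CO and 1213, 1400.2 and 1339 CPM in those of KO. T/NK-like nuclei had 1599, 1385 and 1751 CPM in CO and 2089, 2178 and 1972 CPM in KO, so that all KO libraries were higher there and all KO libraries were lower in macrophage-like nuclei. After TMM scaling the groups overlapped in macrophage-like nuclei and stayed apart in T/NK-like nuclei. Tumor-like nuclei had 5.16 to 40.7 CPM, with KO3 highest. Dendritic-like nuclei had 905 to 1941 CPM.

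Mertk (chr2:128698956-128802894, plus strand, ENSMUSG00000014361) had its highest mean level in macrophage-like nuclei. The CO libraries had 399, 441 and 501 CPM there and the KO libraries 558, 592 and 723 CPM. Tumor-like nuclei had 209.7, 220.3 and 219.8 CPM (CO) and 254, 346 and 307 CPM (KO). All 3 KO libraries lay above all 3 CO libraries in both classes. The class ratio was narrow, 1.71 to 2.35, against 2.74 to 4.60 for macrophage-like over T/NK-like nuclei. Dendritic-like nuclei had 0 to 113 CPM, from at most 5 UMIs per library. Adipocyte-like nuclei had 186 to 683 CPM, from at most 7 UMIs per library, and were above the macrophage-like nuclei in CO3 and KO2. Plasmacytoid dendritic-like nuclei had 0 to 804 CPM, from at most 10 UMIs per library. Thinned to 1000 UMIs, 36.9% of macrophage-like nuclei had a Mertk UMI, 19.8% of tumor-like nuclei, 8.02% of T/NK-like nuclei and 4.60% of dendritic-like nuclei.

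Axl, the other TAM receptor of the set (chr7:25757273-25788705, minus strand, ENSMUSG00000002602), varied less. Macrophage-like nuclei had 263, 328 and 303 CPM in CO and 239, 249 and 324 CPM in KO. Tumor-like nuclei had 168, 175 and 163 CPM (CO) and 171, 167 and 195 CPM (KO). The groups overlapped in both classes, and the macrophage-like level was 1.40 to 1.87 times the tumor-like level. Tyro3, the remaining TAM receptor, had a mean of only 5.08 CPM in macrophage-like and 15.6 CPM in tumor-like nuclei.

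Dock1, the widely expressed Dock protein (chr7:134670654-135173639, plus strand, ENSMUSG00000058325), was higher in tumor-like than in macrophage-like nuclei of every library, by 1.74 to 2.52 times. Tumor-like nuclei had 471, 535 and 665 CPM in CO and 475, 929 and 859.8 CPM in KO. Macrophage-like nuclei had 242, 284 and 382 CPM in CO and 216, 368 and 357 CPM in KO. In both classes KO1 lay among or next to the CO libraries. Endothelial-like nuclei had the highest level, 557 to 1102 CPM. A Dock1 UMI was present in 41.9% of tumor-like and 21.9% of macrophage-like nuclei at 1000 UMIs.

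Gulp1 (chr1:44551511-44796838, plus strand, ENSMUSG00000056870) was a tumor and stroma gene in these nuclei. Tumor-like nuclei had 129, 168 and 283 CPM in CO and 154, 222 and 167 CPM in KO. Macrophage-like nuclei had 11.6, 3.23 and 12.6 CPM in CO and 5.58, 56.6 and 21.9 CPM in KO, from 3 to 27 UMIs per library. The 115 host fibroblast-like nuclei reached 687 CPM in KO2, which had 35 of them. CO1 and KO1, with only 2 and 7 such nuclei, had no Gulp1 UMI there, too few nuclei to read as absence. The adaptor named for engulfment was thus 3.91- to 52.1-fold lower in the macrophage-like nuclei than in the tumor-like nuclei.

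Itgb8 (chr12:119158022-119238802, minus strand, ENSMUSG00000025321) had 22.8, 28.1 and 55.6 CPM in tumor-like nuclei of CO and 26.4, 87.5 and 62.7 CPM in those of KO. In macrophage-like nuclei the UMIs numbered 0, 0 and 2 for the CO libraries but 2, 6 and 15 for the KO libraries. With a limit of 3 counts for a count of 0, the tumor-like level was at least 5.91-fold higher in CO1 and at least 8.70-fold higher in CO2. In the other 4 libraries the ratio of levels had its lowest value, 4.64, in KO2. T/NK-like nuclei had 25 Itgb8 UMIs in all, 21 of them in the cluster led by Themis, Bcl11b and Tox, where the pooled level was 52.6 CPM, and 4 in the cluster led by Ncr1, Klrd1 and Gzmc, at 6.56 CPM. The mean T/NK-like level was 31.4 CPM beside 47.2 CPM in tumor-like nuclei. With nuclei classed by marker counts these means were 46.9 and 45.9 CPM, so Itgb8 was not limited to the tumor-like class. Host fibroblast-like nuclei had a pooled level of 54.2 CPM, from 31 UMIs. Dendritic-like nuclei had 1 Itgb8 UMI.

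Levels of the genes were also set per length, and the measure of length changed the order. Per kilobase of exon, macrophage-like nuclei ranked Elmo1 first with a mean of 149 CPM per kb, then Mertk with 124, Dock8 with 113, Dock2 with 85.8, Dock10 with 76.9, Axl with 56.5, Dock1 with 33.0, Rac2 with 7.63, Gulp1 with 4.95 and Itgb8 with 0.543. The ranges of the libraries were apart between Dock10 and Axl, Axl and Dock1, and Dock1 and Rac2, and overlapped for the other neighbours. In tumor-like nuclei the order began with Dock1 at 70.3 CPM per kb, Mertk at 59.9, Gulp1 at 49.8 and Axl at 34.4, and of its neighbours only Axl and Itgb8 had separate ranges. T/NK-like nuclei began with Dock2 at 145, Dock8 at 122, Elmo1 at 110 and Dock10 at 100.1 CPM per kb, with separate ranges only between Dock10 and Mertk. Per kilobase of gene body, Axl, with the shortest body of the receptors, moved to first place in macrophage-like nuclei at 9.04 CPM per kb. Tags from the end of nuclear transcripts follow neither length strictly.

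The choice of paralog differed between classes within the same families. Dock1 made up 22.3% to 25.5% of Dock1 and Dock2 UMIs in macrophage-like nuclei and 96.5% to 99.5% in tumor-like nuclei. In T/NK-like nuclei its share was 4.39% to 17.2%. Elmo1 took 95.9% to 99.4% of the UMIs of Elmo1, Elmo2 and Elmo3 in macrophage-like nuclei and 14.2% to 52.4% in tumor-like nuclei. Elmo2 was even across the classes, with means of 39.7 CPM in macrophage-like, 48.3 CPM in tumor-like and 45.6 CPM in T/NK-like nuclei. Rac2 had 6.25% to 14.2% of the Rac UMIs in macrophage-like, 21.4% to 45.0% in T/NK-like and 0.396% to 2.20% in tumor-like nuclei, with Rac1 as the main Rac in all 3 classes. With nuclei classed by marker counts, the tumor-like share of Elmo1 was 27.1% to 74.7% and the T/NK-like share of Dock1 was 0.820% to 5.05%, while the Dock1 share was 21.5% to 25.9% in macrophage-like and 89.6% to 98.2% in tumor-like nuclei. Shares of UMIs take no account of gene length, and the Dock1 share leaves out the other Dock genes, Dock4 among them.

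**Figure D2:**
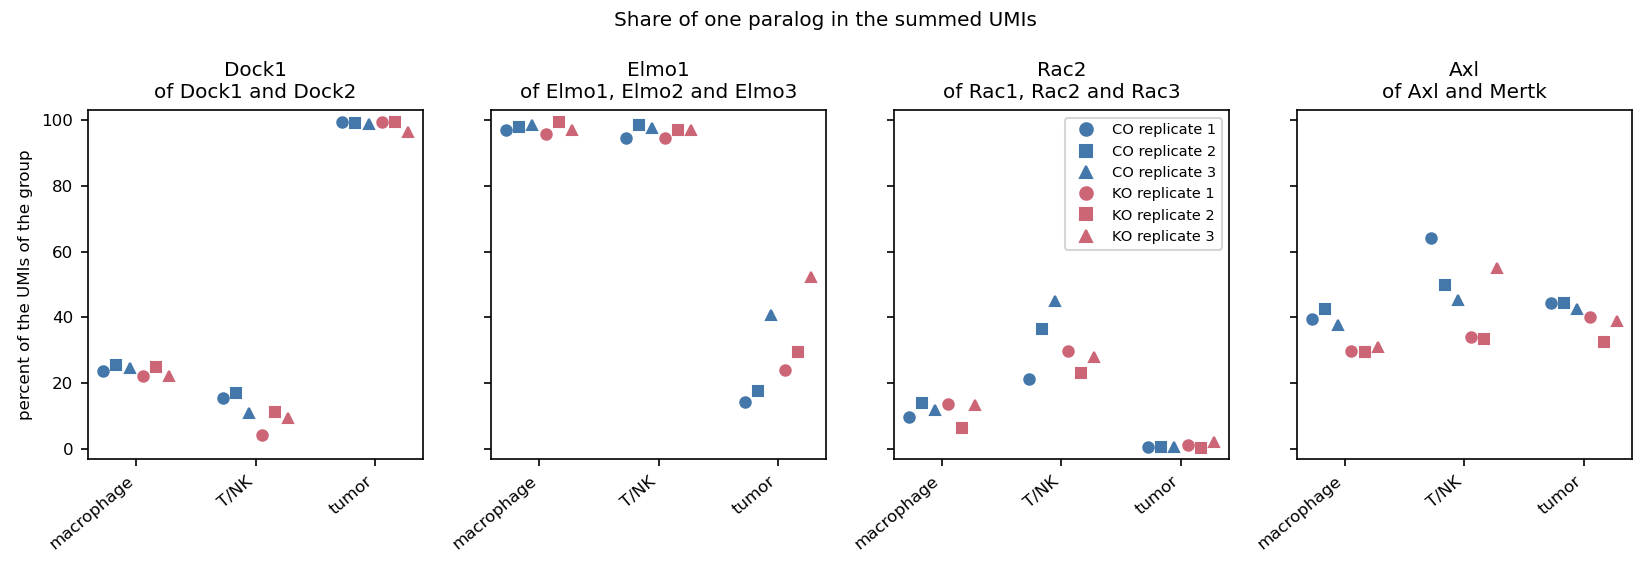
Share of UMIs in percent (vertical axes) taken by Dock1 of Dock1 and Dock2, Elmo1 of Elmo1 to Elmo3, Rac2 of Rac1 to Rac3, and Axl of Axl and Mertk, with 1 point per CO or KO library in macrophage-like, T/NK-like and tumor-like nuclei. Dock1 lies at 22.3% to 25.5% in macrophage-like and 96.5% to 99.5% in tumor-like nuclei, and the 3 KO libraries lie below the 3 CO libraries for the Axl share in macrophage-like and tumor-like nuclei.

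Other Dock genes did not follow Dock2 in the comparison of macrophage-like with tumor-like nuclei. Dock4 had a mean of 1571 CPM in macrophage-like and 741 CPM in tumor-like nuclei, Dock5 had 227 and 141 CPM, and Dock11 had 240.4 and 139.6 CPM. Dock3, Dock6 and Dock9 were at least 2 times higher in tumor-like nuclei of every library, with means of 222, 43.6 and 44.0 CPM against 21.8, 13.2 and 10.6 CPM. None of these 6 genes met the rule for the macrophage-like class. Of these 3 classes, T/NK-like nuclei had the most Dock5, Dock9 and Dock11, but not Dock3, Dock4 or Dock6. Per kilobase of gene body, Dock9 had 0.702 CPM in T/NK-like and 0.172 CPM in tumor-like nuclei. Dock11 had 2.35 CPM per kb in T/NK-like and 1.28 in macrophage-like nuclei, and Dock5 had 1.83 and 1.25.

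Neighbouring genes of the pathway, in 6 lists of 64 genes, were divided as well. Of 56 with enough UMIs, 22 were at least 2 times higher in macrophage-like and 7 in tumor-like nuclei of every library. Among 7 bridging ligands these were Gas6, C1qa, C1qb and C1qc on the macrophage side, the last 3 being also markers of that class. Gas6, the ligand of both TAM receptors, had a mean of 17.9 CPM in macrophage-like and 1.29 CPM in tumor-like nuclei. Of 10 other engulfment receptors, Havcr2, Stab1, Scarf1, Cd300lf, Itgav and Itgb5 were macrophage-high, and Tyro3 and Itgb3 were tumor-high. These sides compare only macrophage-like with tumor-like nuclei. In T/NK-like nuclei Itgb3 had a mean of 82.3 CPM, above 7.95 CPM in tumor-like nuclei. Havcr2 and Itgav had 191 and 807 CPM there, beside 189 and 760 CPM in macrophage-like nuclei. The others named were lower in T/NK-like nuclei than on their named side. Of 11 adaptors, Rhog, Abca1, Ptk2b, Vav1 and Vav3 were macrophage-high and Bcar1 was tumor-high. Of 13 Rac and actin genes, Nckap1l, Cyfip1, Was and Arpc2 were macrophage-high, while Nckap1 was tumor-high. The last is another paralog pair of the WAVE complex, with Nckap1l at 291 and Nckap1 at 65.2 CPM in macrophage-like nuclei, and 3.45 and 363 CPM in tumor-like nuclei. Of 8 genes around Itgb8, Itgb2, Tgfb1 and Nrros were macrophage-high.

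Low levels of a gene outside its main class were read beside the markers of that class. Over the list of 16 tumor markers, the summed level in macrophage-like nuclei reached 10.3%, 6.01% and 7.93% of the tumor-like level for CO and 7.08%, 12.6% and 15.7% for KO. None of the 16 was at 0 there, and single markers ran from 8.37% to 133% with a median of 11.3%. Gulp1 in macrophage-like nuclei lay under that sum in 5 libraries, with 1.92% of its tumor-like level in CO2 as the lowest value, and over it in 1 library, KO2, with 25.6%. Itgb8 ran from 0% to 21.6%. Dock1, at 39.6% to 57.4%, was above the tumor marker sum in every library but within the spread of the single markers. The upper end of that spread came from markers that hardly separated the classes. Igf2bp3 had 37.3 CPM in macrophage-like and 28.0 CPM in tumor-like nuclei, and Crabp1 had 69.5 and 81.0 CPM.

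For the leukocyte genes the measure ran the other way. The summed level of 14 macrophage markers in tumor-like nuclei was 1.41% to 5.89% of the macrophage-like level, with Itgam at 0 in both. Dock2 was at 0.343% to 2.52%, Elmo1 at 0.520% to 2.83%, Dock8 at 0.848% to 3.93%, Dock10 at 0.358% to 3.04% and Rac2 at 3.30% to 10.1%. Of these genes only Rac2 was above the marker sum in every library, on 5 to 24 UMIs per library in tumor-like nuclei. Mertk, at 42.6% to 58.5%, and Axl, at 53.4% to 71.6%, were far above that sum in every library. T/NK-like nuclei had a macrophage marker sum of 16.3% to 30.4% of the macrophage-like level, beside 21.7% to 36.5% for Mertk and 28.2% to 64.7% for Axl. Their tumor marker sum was 9.51% to 29.0% of the tumor-like level, beside 14.2% to 44.4% for Dock1, 3.13% to 42.7% for Gulp1 and 0% to 87.6% for Itgb8. The part of free RNA in these low levels was not tested, and selected samples, not named, had extra washes against it.

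**Figure D3:**
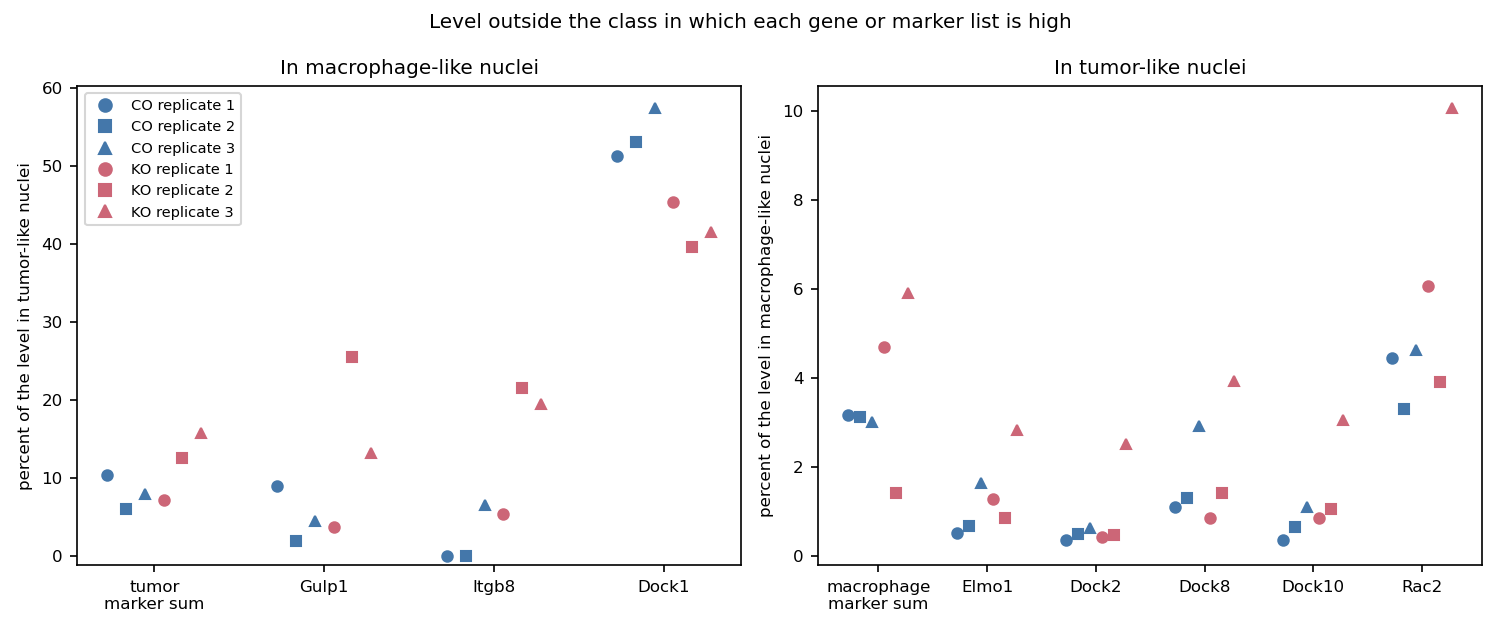
Level of each gene outside its main class, in percent of the level in that class, with 1 point per CO or KO library. On the left are Gulp1, Itgb8, Dock1 and the sum of 16 tumor markers in macrophage-like nuclei. There Dock1 at 39.6% to 57.4% lies above the marker sum of 6.01% to 15.7%. On the right are Elmo1, Dock2, Dock8, Dock10, Rac2 and the sum of 14 macrophage markers in tumor-like nuclei.

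The 3 macrophage-like clusters were not alike for the receptors. The largest, with 2385 nuclei, had a median of 620.1 CPM Mertk over libraries and a range of 465 to 782 CPM. The cluster of 724 nuclei had a median of 160 CPM, from 115 to 334 CPM, and the cluster of 494 nuclei had 489 CPM, from 250.1 to 745 CPM. The largest cluster and that of 724 nuclei did not overlap. The median of the latter was below the mean of tumor-like nuclei, 260 CPM. Axl had another order, with 444 CPM (417 to 605) in the cluster of 494 nuclei, apart from 269 CPM (204 to 300.0) in the largest cluster and 231 CPM (158 to 307) in that of 724 nuclei. Elmo1 had a median of 2050 CPM in the largest cluster. Clusters of 1830 and 616 nuclei with 12 and 11 of 14 macrophage markers were led by other genes, among them Cadm1, Pou2f2 and Lair1 in the first and Fcrl5 and Cd300e in the second, and were left without a name. They had medians of 410 and 318 CPM Mertk and of 239.8 and 254 CPM Axl.

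**Figure D4:**
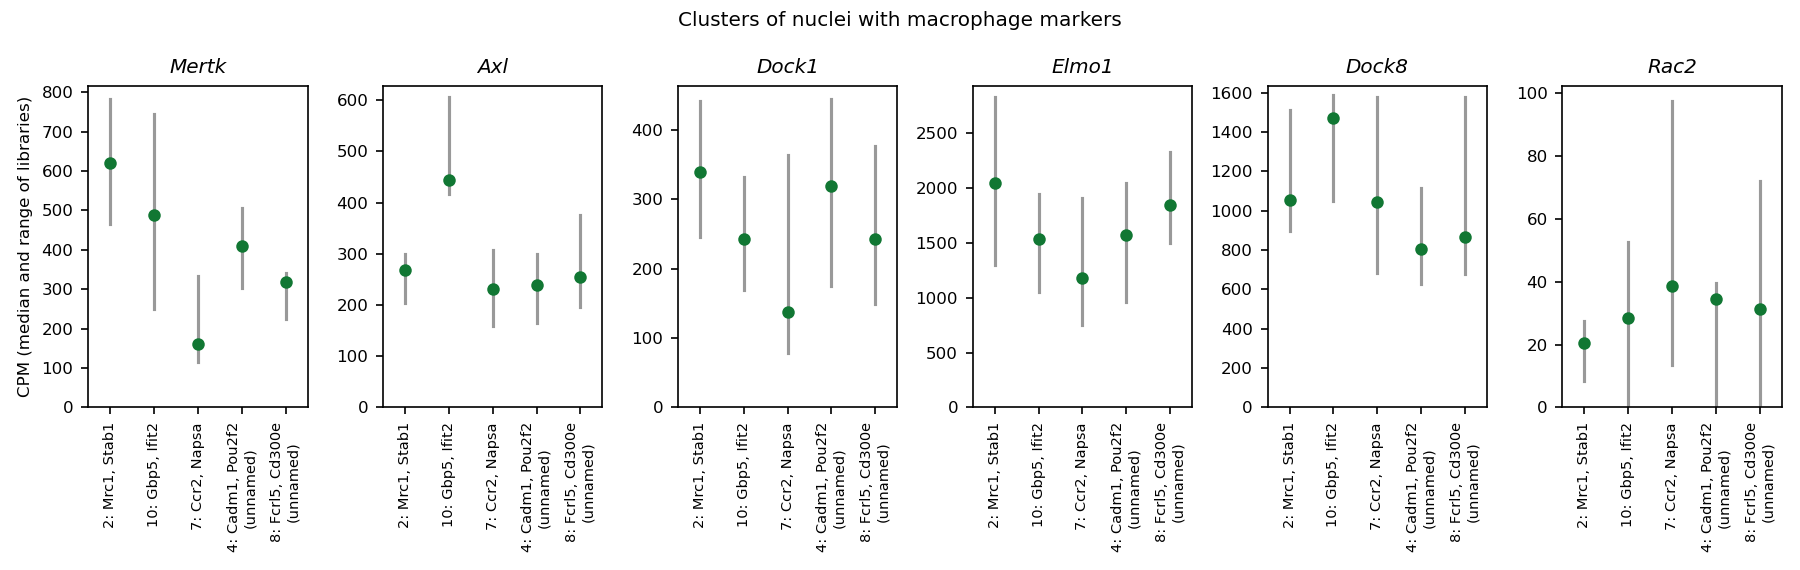
Median (point) and range over libraries (bar) of the level in CPM, on the vertical axis, of Mertk, Axl, Dock1, Elmo1, Dock8 and Rac2 in the 3 macrophage-like clusters (2, 10 and 7) and in 2 unnamed clusters with macrophage markers (4 and 8). Mertk is highest in cluster 2 and lowest in cluster 7, and Axl is highest in cluster 10.

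In single macrophage-like nuclei thinned to 1000 UMIs, Mertk was found in 36.8% of those with an Axl UMI and in 36.9% of those without. The presence of an Axl UMI thus left the share with Mertk nearly level, without a test, since nuclei of a library are not replicates. Elmo1 was found in 76.8% of nuclei with a Dock2 UMI and 73.9% of those without.

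Genes with the most similar profiles were ranked by Pearson's r of log2(CPM + 1) over 18 sums of class and library, among 11253 genes. The sums share libraries and depth, and r is given as a description. Mertk was nearest to Tlr4 (0.94), Camk2d (0.91) and Dnajb14 (0.91), and Axl to Wdfy3 (0.94), Gcnt2 (0.92) and Eng (0.92). Gulp1 was nearest to Ccdc141 (0.97), Dennd5b and Ehbp1, and Itgb8 to Rfx3 (0.95), Ptprg and Gm49711. Acvr1 (0.96) and Frmd4a (0.94) were among the genes nearest to Dock1. For Elmo1 the genes were Arhgap15, Zc3h12d and Lcp2, and for Rac2 they were Samsn1, Agap2 and Ptpn7. Dock2, Dock8 and Dock10 named each other or Fli1, with Arhgap15 and Ikzf1 as the rest of their lists.

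In KO compared with CO, none of the 10 genes passed the test in any class. Counts were summed per library and tested with edgeR over all genes, and a gene was called at an adjusted p of at most 0.05 together with a log2 fold change of at least 0.58 in size. Of all genes, 0% of 13665 in all nuclei, 0% of 9195 in macrophage-like nuclei, 0% of 12811 in tumor-like nuclei and 0% of 4831 in T/NK-like nuclei were called. At an unadjusted p under 0.05 the shares were 4.88%, 5.29%, 7% and 4.64%, and of the members Mertk alone was among them, in the first 3. DESeq2 called 12, 1, 27 and 3 genes in these sets, and none was a member. Itgb8 did not pass the filter on low counts in macrophage-like and T/NK-like nuclei, so 9 members were tested there.

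Mertk had the smallest p of the members in macrophage-like and tumor-like nuclei. On the TMM-scaled CPM of the fit, macrophage-like nuclei of CO had 450.4 ± 56.2 and those of KO had 643 ± 93.0 (SD, n = 3 per group). The log2 fold change from edgeR was 0.52 (SE 0.22, adjusted p 0.867). Tumor-like nuclei of CO had 212 ± 4.22 and those of KO had 311 ± 61.4, and the log2 fold change was 0.56 (edgeR SE 0.19, adjusted p 0.572). In both classes and in all nuclei (log2 fold change 0.59, edgeR SE 0.18, adjusted p 0.670), the KO libraries lay above the CO libraries. Such a lack of overlap was seen in 10.9% of genes in all nuclei, 11.5% in macrophage-like and 12.8% in tumor-like nuclei. In T/NK-like nuclei the Mertk values were 164 ± 48.1 and 172 ± 13.3.

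Dock8 was the other member without overlap in macrophage-like nuclei, at 1315 ± 214 for CO against 999.6 ± 109 for KO (SD, n = 3 per group) and a log2 fold change of -0.40 (edgeR SE 0.24, adjusted p 0.867). In tumor-like nuclei, where it is nearly absent, the groups overlapped. In T/NK-like nuclei its log2 fold change was -0.03. Dock10 in T/NK-like nuclei also separated the groups, at 1844 ± 201 for CO against 2477 ± 130.1 for KO and a log2 fold change of 0.43 (edgeR SE 0.34, adjusted p 0.965), beside 10.8% of genes without overlap. T/NK-like nuclei numbered only 44 in KO2.

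The remaining members overlapped between the groups. In macrophage-like nuclei the log2 fold changes were 0.16 for Elmo1, 0.19 for Dock2, 0.01 for Rac2, -0.15 for Dock10, -0.11 for Axl and 0.08 for Dock1, each smaller than its standard error of 0.22 to 0.38 by the fit. Gulp1 had the largest, 1.41 (SE 0.83), on few UMIs, and it was 0.65 without KO2. The tumor marker sum in macrophage-like nuclei was 12.6% in KO2 and higher, 15.7%, in KO3. The part of tumor RNA in the Gulp1 value was not tested. In tumor-like nuclei Dock1 had 0.52 (SE 0.31) and Itgb8 0.84 (SE 0.50), which were 0.29 and 0.36 without KO2. Without KO1 the Dock1 value was 0.78 and passed the test (edgeR adjusted p 0.0407), in a fit that called 2437 of 12932 genes, and that of Itgb8 was 1.22. Without CO3 the Itgb8 value was 1.28. In the same nuclei Axl had 0.14 (SE 0.15) and Gulp1 -0.01 (SE 0.31). Elmo1, Dock2 and Dock10, at low levels there, had 0.91, 1.58 and 1.12 on the log2 scale. The Dock2 value was set by KO3, since it became -0.04 without that library, in which the macrophage marker sum in tumor-like nuclei was also highest (5.89%). Among tumor-like clusters, the highest level of Dock2 in a library was 210 CPM in the cluster of 2476 nuclei, whose median over libraries was 4.02 CPM. In the other tumor-like clusters it was at most 63.5 CPM, and 16.8 CPM in the largest. The part of macrophage RNA in the Dock2 value was not tested. In T/NK-like nuclei Dock2 had 0.67 (SE 0.37), Elmo1 0.32 (SE 0.34) and Axl -0.37 (SE 0.39).

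**Figure D5:**
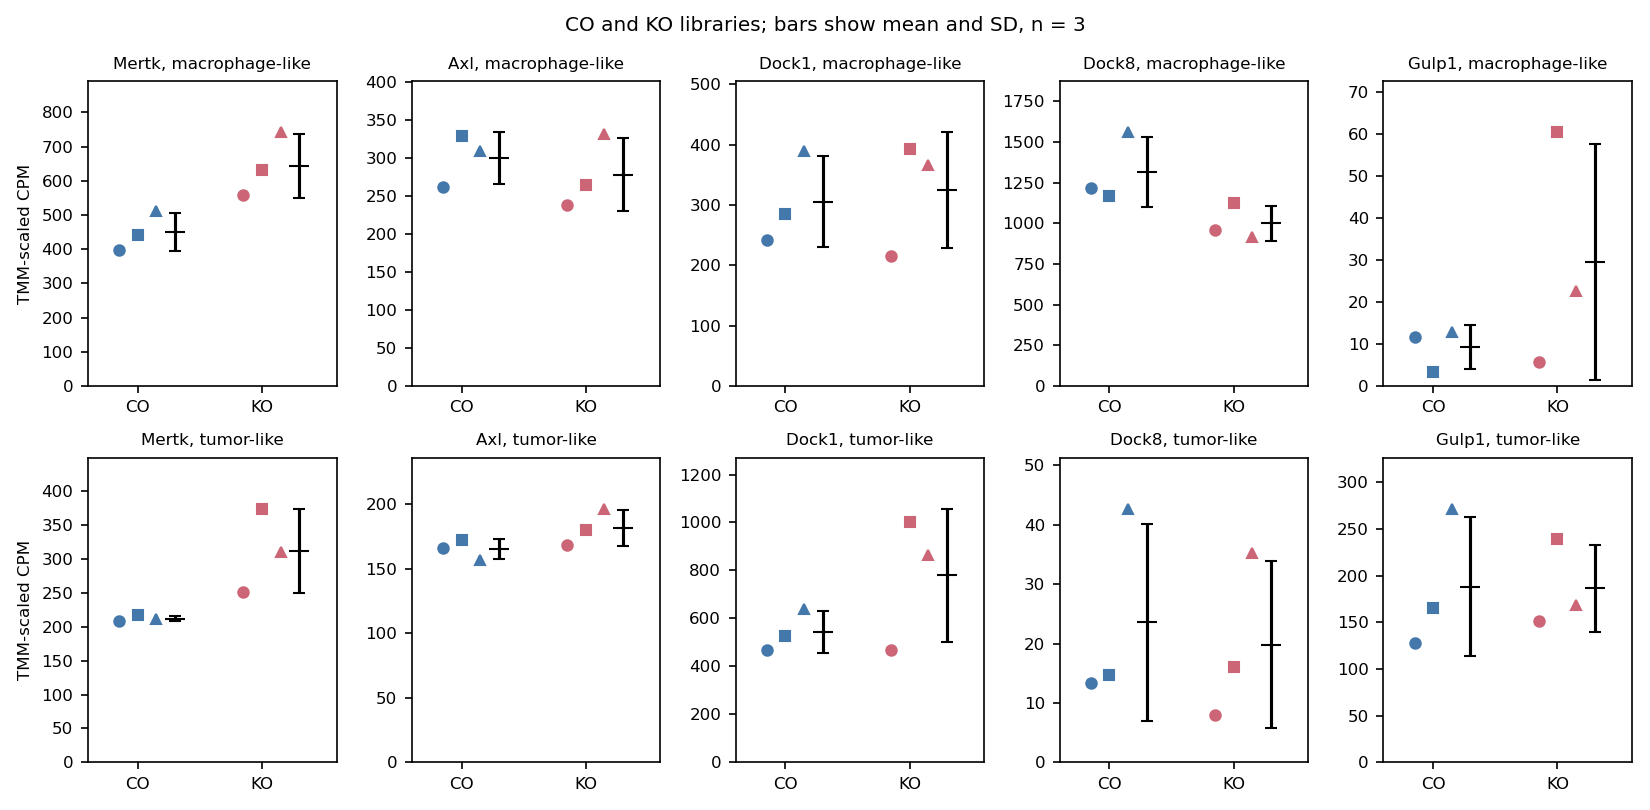
TMM-scaled CPM (vertical axes) of Mertk, Axl, Dock1, Dock8 and Gulp1 in each CO and KO library, with bars at the mean and SD (n = 3 per group), for macrophage-like nuclei in the upper row and tumor-like nuclei in the lower row. The 3 KO points of Mertk lie above the 3 CO points in both rows, the KO points of Dock8 lie below the CO points in the upper row, and the others overlap.

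Leaving out KO1 changed the calls. Without it, 14.9% of genes were called in macrophage-like nuclei, with Gulp1 (log2 fold change 1.94, edgeR adjusted p 0.0238) and Mertk (0.61, adjusted p 0.0424) among 9 members. In tumor-like nuclei 18.8% of genes were called, with Mertk (0.69, edgeR adjusted p 0.0332) and Dock1 (0.78, adjusted p 0.0407) among 10 members. With a call in so many genes, these shares of the members are near the background. KO1 had Dock1, Itgb8 and Gulp1 levels close to those of CO1 and CO2 in tumor-like nuclei. No other omission of a library led to a call of a member in these 2 classes.

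The change from CO to KO was also compared between macrophage-like and tumor-like nuclei, with the library as a block. No member and 0% of 12269 genes were called. At an unadjusted p under 0.05, with 7.96% of genes, Itgb8 (difference of log2 fold changes, macrophage-like minus tumor-like, 2.57, SE 0.94, edgeR adjusted p 0.532) and Dock10 (-1.13, SE 0.41, adjusted p 0.532) were among them. The Itgb8 value rests on 25 UMIs in macrophage-like nuclei, and with 1 library left out it ran from 1.79 to 7.68, the latter without CO3, the only CO library with an Itgb8 UMI in this class, so that the size of this value depends on the prior count of the fit. The Dock10 value ran from -1.50, without CO3, to -0.61, without KO3. For Mertk the difference was 0.02 (SE 0.21). Without KO1, 1.15% of genes were called, Gulp1 (1.92, edgeR adjusted p 0.0383) and Dock10 (-1.49, adjusted p 0.0451) among them. With no filter on low counts, 0.916% were called, among them Dock10 (-1.30), Dock2 (-1.04) and Elmo1 (-0.97), 3 genes whose tumor-like counts are the low ones.

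Paralog shares were compared between the groups with exact permutation tests over libraries, 8 in all, where 3 against 3 libraries allow no p below 0.1. The Axl share of Axl and Mertk UMIs in macrophage-like nuclei came to 39.7%, 42.7% and 37.7% for CO but 29.9%, 29.6% and 31.0% for KO. KO minus CO came to -9.86 percentage points (exact permutation p = 0.1, adjusted p = 0.4). In tumor-like nuclei it came to 44.5%, 44.3% and 42.6% for CO but 40.2%, 32.5% and 38.8% for KO, which is -6.60 percentage points (exact permutation p = 0.1, adjusted p = 0.4). In both classes, which come from the same libraries, the groups did not overlap. With 3 against 3 libraries any share without overlap has an exact permutation p of 0.1. How often the shares of other gene pairs lack overlap was not counted. The Axl levels themselves overlapped between the groups in both classes, and the Mertk levels did not. The Dock1 share in macrophage-like nuclei differed by -1.37 percentage points (exact permutation p = 0.3), and the other 5 shares had exact permutation p from 0.4 to 0.9.

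None of the 64 neighbouring genes was called in KO compared with CO in any class. Of those tested, 61 in all nuclei, 46 in macrophage-like, 56 in tumor-like and 41 in T/NK-like nuclei, an unadjusted p under 0.05 was seen for 4, 6, 7 and 5 genes, beside 4.88%, 5.29%, 7% and 4.64% of all genes. The Dock family list had a median log2 fold change of 0.31 in macrophage-like nuclei (6 genes, beside 0.01 over all genes) and 0.43 in tumor-like nuclei (7 genes, beside -0.02). The engulfment receptor list had -0.16 and -0.11 in the same classes.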

How the data were processed

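The deposited values are whole-number UMI counts per gene and barcode, 1 matrix per library. The authors made them with Cell Ranger on GRCm38 (version 3.0.2 in the submitters' notes, 3.1.0 in the file headers). The study also describes removal of free RNA, but the deposited counts are whole numbers and were used as they stand. The members and gene lists were chosen with earlier results of these data known. Nuclei with 100 to 7500 genes and under 20% mitochondrial counts were kept, and the highest doublet scores, 0.8% per 1000 barcodes, were removed (500 nuclei, since the automatic call marked 11). Clusters (scanpy 1.11.5, 2000 variable genes, 30 components, Leiden resolution 1) were formed without 74 genes, the members and lists among them, and named from marker lists, giving 23 clusters. Names are rebuilt and may differ from the study's.

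CPM divides the summed UMIs of a class by its total in a library. Classes with at least 20 nuclei in every library were tested with edgeR 4.0.16 (TMM, filterByExpr, quasi-likelihood, Benjamini-Hochberg) in R 4.3.3. Alternatives were DESeq2 1.42.0, other size factors, no filter on low counts, each library left out, the replicate number as a block, thinning to 1000 UMIs, stricter nuclei (500 genes, 5%), doublets kept, classing by marker counts and, added after seeing the data, the unnamed macrophage clusters joined to the macrophage-like class. The tests were checked on simulated data. All members were named. Of the lists, genes past a rule and paralogs of the members were named, and for each member the 3 most similar genes of at least 5 CPM on average. Results for 1 gene that these rules name are not reported here. Coordinates are from GENCODE on GRCm38. Promoter sequences are from RefSeq, and protein sequences were not used here. Intervals and limits for counts of 0 cover counting error only.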

Additional observations from a re-analysis of the deposited data

How the results depend on the processing

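Changing the filter, the tool or the libraries moved counts of called genes that were 0 by edgeR. DESeq2 called 12 genes in all nuclei, 1 in macrophage-like, 27 in tumor-like and 3 in T/NK-like nuclei and 15 for the difference between classes. With no filter on low counts, edgeR called 1 gene in macrophage-like and 47 in T/NK-like nuclei and 163 for the difference. Thinning to 1000 UMIs and keeping doublets each gave 1 gene for the difference. Leaving out 1 library at a time gave 0 to 1376 genes in macrophage-like, 0 to 2437 in tumor-like and 0 to 49 in T/NK-like nuclei and 0 to 142 for the difference, and 0 in all nuclei. The causes were not tested. Whether the replicate numbers pair the samples was not settled. In all nuclei, correlations of deviations within a number were 0.54, -0.32 and 0.41, against at best -0.29, 0.39 and 0.36 with another number. Median mitochondrial percent fell with the number in both groups. It was 6.76 in CO1 and 1.33 in CO3, and 6.23 in KO1 and 0.89 in KO3. With the number as a replicate block, 1 gene was called in T/NK-like nuclei and 0 in the other sets, no member among them. At an unadjusted p under 0.05 the block gave 4 members in tumor-like nuclei, not 1, and 0 in macrophage-like nuclei, not 1.

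Of the 10 genes, the Dock2 change in tumor-like nuclei turned from 1.58 to -0.0356 without KO3 (range with 1 library left out -0.0356 to 2.07), and its difference between classes from -0.86 to 0.0315 (-1.42 to 0.0315). The Mertk difference, 0.02, became -0.0626 with other size factors and -0.0614 with DESeq2, -0.14 with no filter, and ran from -0.18 to 0.12 with 1 library left out. Over the same omissions the Mertk change was 0.39 to 0.61 in macrophage-like and 0.40 to 0.69 in tumor-like nuclei, and that of Dock8 in macrophage-like nuclei -0.48 to -0.26. Of 643 values of members under alternatives, 66 had the opposite sign. Gene counts by class level, 5, 5 and 2, held throughout, except that 4 members were T/NK-high when nuclei were classed by marker counts. T/NK-like nuclei so classed numbered 14 in KO2, and that test was not run. With 3 libraries a group and few UMIs for Rac2, Itgb8 and, in macrophage-like nuclei, Gulp1, depth limits what could be detected.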
